A study of Homo sapiens with 2 samples.

Results

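Azurophil granule cells were droplets rich in the transcripts of ELANE, PRTN3 and AZU1, the serine proteases and the inactive relative of these proteases that neutrophil precursors pack into their azurophil granules. A cell was taken when it held at least 20 UMIs (unique molecular identifiers, counted transcripts) of these 3 genes together, fewer than 10 UMIs of the calprotectin genes S100A8 and S100A9 together, and not at least 10 UMIs of both EPX and PRG2, which make eosinophil granule proteins. This rule took 340 of 7550 kept cells (4.50%, exact binomial 95% interval 4.05 to 5.00). All intervals cover counting error only. Kept cells were those called for 1 hashtag that stayed within limits of 36000 gene UMIs, 6000 genes and 18% mitochondrial UMIs. The share depended strongly on these choices. It was lower with a stricter calprotectin limit and higher with a stricter mitochondrial limit, as given in the last section.

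The cells came from the human induced pluripotent stem cell line IPS11, a single line, through an endothelial-to-hematopoietic transition (EHT) culture, in which CD34+ hemogenic cells give rise to blood cells. Cells were plated on wells that were uncoated or coated with VCAM1, DLL4 or DLL4+VCAM1, where VCAM1 is an adhesion molecule and DLL4 is a Notch ligand, and all received the same EHT medium. Nonadherent cells were taken on day 5, the 3 wells of each coating were pooled, and the 4 pools were marked by hashtag antibodies and run as 1 library. No label ties a hashtag to a coating, so the hashtags 0252, 0253, 0254 and 0255 are given by number and no coating was compared. Each hashtag is a single pool of another coating and the groups of cells were chosen by their expression, so no comparison below has a test or a p-value.

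Azurophil granules are the granules that neutrophil precursors make first, at the promyelocyte stage. They hold myeloperoxidase, the neutrophil serine proteases elastase, proteinase 3 and cathepsin G, lysozyme, defensins and the proteoglycan serglycin, which retains the proteases. The granule genes are switched off as precursors pass to the myelocyte, and specific granule genes and calprotectin follow. The transcription factors C/EBPα, C/EBPε, PU.1, MYB, RUNX1 and GFI1 are known regulators of this program, and mutations in ELANE are a known cause of severe congenital neutropenia.

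The 3 genes of the rule are neighbours in the genome. In GRCh37 with the GENCODE annotation, AZU1 lies at chr19:825097-832018, PRTN3 at chr19:840999-848175 and ELANE at chr19:851014-856247, all on the + strand, followed by CFD, the complement factor D gene, at chr19:859453-867884. The stretch from the start of AZU1 to the end of CFD is 42788 bases, and the gaps between neighbours are 8980, 2838 and 3205 bases. MPO, myeloperoxidase, lies elsewhere at chr17:56347216-56358296 on the - strand, and CTSG, cathepsin G, at chr14:25042724-25045456 on the - strand.

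Promoters are shown for 2 genes of the cluster and for CTSG, the protease gene outside it, because these genes chose the cells or were found with them. Each is the 150 bases before the start of the RefSeq transcript, 5′ to 3′ in the direction of transcription, from the RefSeq promoter table (GRCh38.p14) and placed by exact match in GRCh37. Capitals mark matches on either strand to GAGGAA (the core that PU.1 binds), TTGCNNAA (a form of the C/EBP site) or AACNG (a form of the MYB site).
PRTN3, chr19:840849-840998, + strand: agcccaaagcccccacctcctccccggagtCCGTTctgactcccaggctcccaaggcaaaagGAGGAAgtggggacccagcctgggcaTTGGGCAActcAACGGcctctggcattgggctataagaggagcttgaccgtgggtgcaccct
AZU1, chr19:827687-827836, + strand: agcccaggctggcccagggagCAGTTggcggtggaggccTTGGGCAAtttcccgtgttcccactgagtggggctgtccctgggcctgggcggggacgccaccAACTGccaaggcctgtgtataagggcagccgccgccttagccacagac
CTSG, chr14:25045457-25045606, - strand: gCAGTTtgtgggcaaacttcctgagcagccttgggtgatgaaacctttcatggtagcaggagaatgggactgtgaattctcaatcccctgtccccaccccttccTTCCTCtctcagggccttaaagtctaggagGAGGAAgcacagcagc
GAGGAA was found in PRTN3 and in 2 places of CTSG, and 14.8% of 35116 RefSeq promoters hold it in the same 150 bases. TTGCNNAA was found in PRTN3 and AZU1, and 5.02% of promoters hold it. AACNG was found in all 3, and 52.1% of promoters hold it. The RUNX core TGTGGT was in none of the 3, against 6.59% of promoters. No match overlapped another, and a match describes letters, not binding. The window of AZU1 lies inside a longer annotated transcript of the same gene, but in none of its exons.

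The rule was in effect a rule on PRTN3. Of the UMIs that it counted in the azurophil granule cells, 90.5% were PRTN3, 8.39% AZU1 and 1.10% ELANE, and 326 of the 340 cells passed on PRTN3 alone, against 85 without it. The sum of the 3 genes had a median of 110.5 UMIs per cell (20 to 756). It was 147, 104, 68 and 117 in hashtags 0252, 0253, 0254 and 0255. Levels are given as CPM, UMIs per 1000000 gene UMIs of the pooled cells, with exact Poisson 95% intervals. PRTN3 was at 6951 CPM (6889 to 7013), AZU1 at 645 CPM and ELANE at 84.6 CPM (77.9 to 91.7). ELANE was 120, 73.1, 16.6 and 77.8 CPM in the 4 hashtags, lowest in 0254. The cells were chosen by the UMIs of these genes, so these values are given as a description, with no test.

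Most kept cells had hardly any of these transcripts. The sum was 0 in 3048 kept cells, 1 to 4 in 3283 and 5 to 19 in 314. Cells just inside and just outside the protease limit had MPO at 1510 and 2027 CPM, and those at the calprotectin limit differed more in ELANE and LYZ. The 17 members with 20 to 24 UMIs held 884 CPM of PRTN3, and the 29 cells with 15 to 19 UMIs that met the other limits held 702 CPM. At the calprotectin limit, the 43 members with 8 or 9 UMIs of S100A8 and S100A9 held 8631 CPM of MPO, 458 CPM of LYZ (lysozyme) and 57.2 CPM of ELANE, and the 35 cells with 10 or 11 UMIs held 9145, 895 and 384 CPM. As the plot of the rule shows, the limits ran through occupied ranges, and the azurophil granule cells are a range of values and not a separate cloud.

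**Figure D1:**
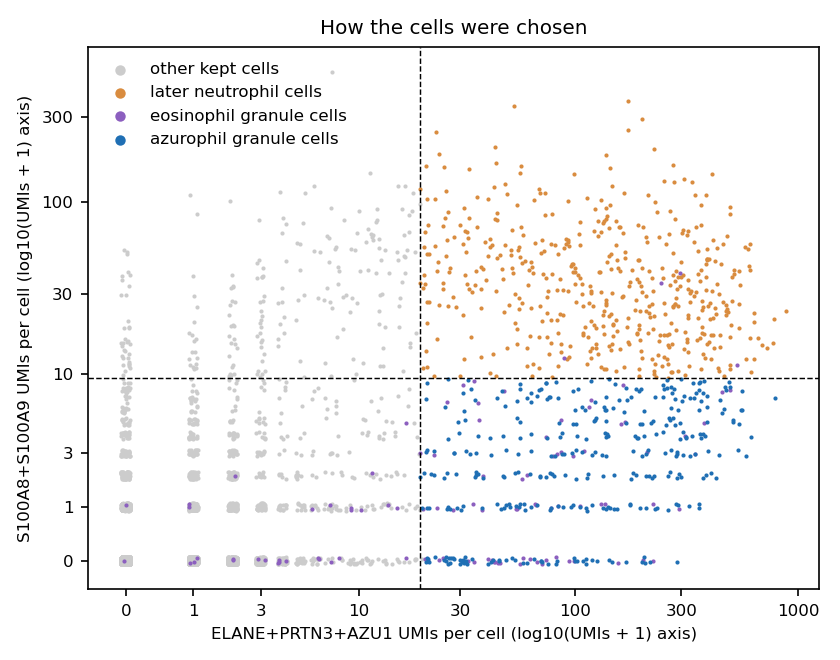
UMIs of ELANE+PRTN3+AZU1 (horizontal axis) against UMIs of S100A8+S100A9 (vertical axis) in single cells, both on log10(UMIs + 1) axes, with colors for the groups the text uses. The 340 azurophil granule cells lie at 20 or more on the horizontal axis and under 10 on the vertical, and run into the 493 cells above them without a gap.

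ELANE, the gene that gives the program its best known name, was found in a minority of the azurophil granule cells. At least 1 ELANE UMI was present in 26.2% of them (21.6 to 31.2), at a median depth of 20908.5 UMIs per cell, against 1.86% of the C1Q macrophages at a median depth of 12817. With every cell thinned to 5000 UMIs the shares were 14.2% and 0.532%. ELANE was part of the rule, and the macrophages were taken with fewer than 20 protease UMIs. The choice of cells thus fixed part of this difference. DEFA4, a defensin of the azurophil granule, was found in 13.5% of the members and 0.796% of the macrophages. After thinning it was found in 8.61% of the members, given without a thinned share of the macrophages. Its level was higher in later neutrophil cells, as given below. The share with DEFA4 went up with the number of ELANE UMIs, a split by a gene of the rule that is given as a description. DEFA4 was present in 19 of the 38 members with at least 3 ELANE UMIs (50%, 33.4 to 66.6), in 10 of the 51 with 1 or 2 (19.6%) and in 17 of the 251 with 0 (6.77%).

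MPO, the marker of the label that the rule did not use, was high in most of these cells. It was 7783, 5955, 4433 and 5597 CPM in the 4 hashtags, highest in 0252 and lowest in 0254, and 6417 CPM (6358 to 6477) in all. Per cell the median was 119 MPO UMIs, with a range of 1 to 423. At least 50 MPO UMIs were present in 280 of the 340 (82.4%), in 0 of 377 C1Q macrophages and in 10 of 632 SPINK2 cells (1.58%). In later neutrophil cells MPO was 10070, 9661, 7463 and 7283 CPM by hashtag and 9421 CPM in all. That was 1.47-fold (1.45 to 1.49) above the azurophil granule cells, with some overlap between hashtags. In eosinophil granule cells MPO was 2360 CPM.

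Other groups of the same library were used for comparison. Later neutrophil cells (493) met the same limit of at least 20 protease UMIs but had at least 10 calprotectin UMIs. They were not matched to the azurophil granule cells on the protease level. Their name is a working name for that rule, which gives neither a measured order in time nor a lineage. They also held more monocyte and macrophage transcripts than azurophil granule cells, as given below, and 11 of 16 specific granule genes were under 1 CPM in them. Eosinophil granule cells (103) had at least 10 UMIs of both EPX and PRG2. C1Q macrophages (377) had at least 20 UMIs of the complement genes C1QA, C1QB and C1QC, and SPINK2 cells (632) had at least 5 UMIs of SPINK2, a gene of stem and early progenitor cells. The groups were exclusive. Macrophages had fewer than 20 protease UMIs and were not eosinophil granule cells, and SPINK2 cells also had fewer than 10 calprotectin and fewer than 20 C1Q UMIs, while 5605 kept cells were in none of the 5 groups. The median depth was 15886 UMIs in later neutrophil cells, 20668 in eosinophil granule cells and 21952 in SPINK2 cells. The azurophil granule cells had a median of 4576 genes and 11.4% mitochondrial UMIs, against 13.1% in all kept cells.

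The azurophil granule cells carried most of the azurophil granule genes that were not in the rule. MPO, SRGN, PRSS57, CD63, RNASE2 and LYZ were the most abundant by CPM, which in 3′ libraries counts transcripts and not their length, and CTSG, RNASE3, DEFA4 and BPI were lower. Compared with later neutrophil cells they had as much or more of CTSG and PRSS57, the proteases outside the rule. They had somewhat less MPO and serglycin, and much less lysozyme and defensin. PRTN3, the main gene of the rule, was also lower in them, at 6951 against 10513 CPM. SRGN, the serglycin core protein, was 1952, 1731, 1396 and 1813 CPM in the 4 hashtags and 1783 CPM in all. It was 2213 CPM in later neutrophil cells, 2472 in eosinophil granule cells, 80.6 in SPINK2 cells and 279 in C1Q macrophages, so all 3 granule groups were well above the latter pair.

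Among the proteases, CTSG was 69.6, 85.6, 77.6 and 73.2 CPM by hashtag in azurophil granule cells and 65.5, 54.4, 46.8 and 28.4 CPM in later neutrophil cells. The ranges by hashtag did not overlap, and the ratio was 1.36-fold (1.20 to 1.55). PRSS57, neutrophil serine protease 4, was 738, 693, 696 and 581 CPM by hashtag and 697 CPM in all, against 567 CPM in later neutrophil cells, a ratio of 1.23-fold (1.18 to 1.28). Eosinophil granule cells had 18.2 CPM of CTSG and 874 CPM of PRSS57, so CTSG was far lower in them and PRSS57 was not.

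The antimicrobial proteins differed most. LYZ was 324, 166, 225 and 256 CPM by hashtag in azurophil granule cells and 2040, 1765, 1610 and 999 CPM in later neutrophil cells. It was 7.37-fold (7.02 to 7.76) lower in the azurophil granule cells, with no overlap between hashtags. DEFA4 was 63.3, 35.2, 13.3 and 27.5 CPM by hashtag, 42.2 CPM in all and 245 CPM in later neutrophil cells, 5.80-fold lower (5.14 to 6.58). BPI, a protein that kills gram-negative bacteria, was 19.8 against 44.2 CPM. DEFA3, whose reads cannot be told from its near-identical copies DEFA1 and DEFA1B, was 9.53 against 143 CPM, and 59.7% of its UMIs in azurophil granule cells came from 1 cell. DEFA1 and DEFA1B were listed at 0.

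**Figure D2:**
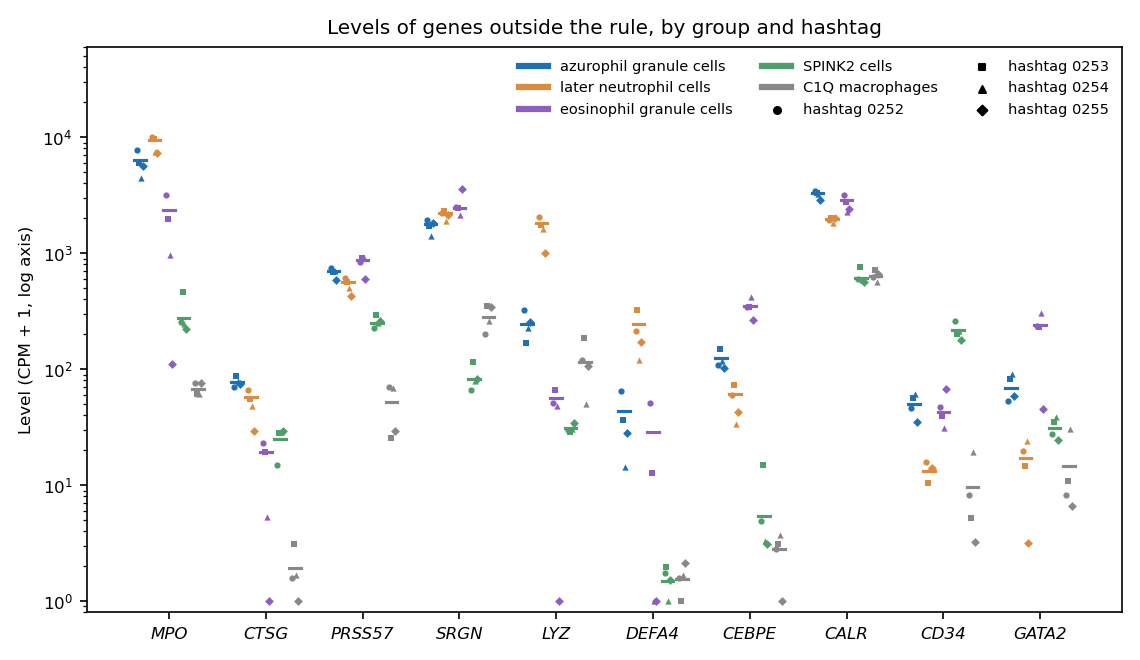
Level of 10 genes outside the rule (CPM + 1, log axis) in azurophil granule cells and the comparison groups, with a bar for all cells of a group and 1 point per hashtag, whose shape names it. MPO, SRGN and CALR are high in every hashtag of the azurophil granule cells, LYZ and DEFA4 are lower there than in later neutrophil cells, and CD34 and GATA2 are higher than in later neutrophil cells.

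Across all genes, azurophil granule cells and later neutrophil cells were close. Of 8262 genes with at least 10 CPM in either group, 58 (0.702%) were at least 2-fold higher in azurophil granule cells and 304 (3.68%) at least 2-fold lower, after adding 1 CPM to both. The median log2 ratio was -0.02. The genes of the rule were left out. Both counts moved strongly with the CPM floor, and the number of genes higher also with the mitochondrial limit, as given in the last section. The groups were split by calprotectin, so genes that vary with it could differ by choice, and the lists below are descriptions to be read against these shares.

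Some granule genes of several kinds were lower. Of 11 measured azurophil granule genes outside the rule, 0 were at least 2-fold higher and 4 lower (BPI, LYZ, DEFA3 and DEFA4), with a median log2 ratio of -0.55. Of the 4 measured specific and gelatinase granule genes 3 were lower, namely HP (haptoglobin), CHI3L1 (a chitinase-like protein) and PADI4 (which citrullinates histones). Haptoglobin was 10.7 against 151 CPM. The list as a whole was near its floor in azurophil granule cells, where 12 of 16 genes found in the annotation were under 1 CPM, and its summed level was 82.5 CPM against 374. Of 8 protease activators and inhibitors, CSTA, CST3 (cystatins) and GRN (progranulin) were lower. Of 6 NADPH oxidase subunits 2 were lower, among them the catalytic subunit CYBB (4.86-fold, 4.12 to 5.76), and 4 were within 2-fold, with a median log2 ratio of -0.61. SLPI, an inhibitor of elastase, was 52.0 against 75.2 CPM.

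The promyelocyte genes split. IGLL1, a surrogate light chain of the pre-B cell receptor, was 142 CPM in azurophil granule cells and 19.9 CPM in later neutrophil cells, and CEBPE, the factor needed for later granule stages, was 123 and 60.4 CPM. SERPINB10 (29.6 against 67.1 CPM) and NKG7 were at least 2-fold lower, and the other 7 of 11 were within 2-fold. Among these, MS4A3 was 239 against 442 CPM, CFD 264 against 425, CLEC11A 461 against 403, LPPR3 (now PLPPR3) 161 against 143, and GFI1 28.3 against 21.9. CEBPE was 107, 149, 118 and 102 CPM by hashtag in azurophil granule cells and 59.1, 72.0, 32.9 and 41.5 CPM in later neutrophil cells. Its hashtags did not overlap, but the ratio of 2.04-fold (1.82 to 2.28) sits at the limit, and eosinophil granule cells were higher still at 350 CPM.

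Most early progenitor genes measured were higher. CD34, a sialomucin of progenitors, was 45.2, 55.1, 59.9 and 34.3 CPM by hashtag and 49.3 CPM in all, against 12.2 CPM in later neutrophil cells and 215 CPM in SPINK2 cells. That is 4.06-fold (3.24 to 5.12) above later neutrophil cells and 4.37-fold (3.91 to 4.89) below SPINK2 cells. At least 1 CD34 UMI was present in 153 members, a count given without a background share from another group or a correction for depth. SPINK2 followed the same order at 32.4, 12 and 352 CPM, although it also chose the SPINK2 cells. GATA2, a factor of stem cells and of the eosinophil and mast cell lines, was 52.6, 81.7, 89.8 and 57.2 CPM by hashtag and 68.5 CPM in all, against 16.2 CPM in later neutrophil cells, 4.24-fold (3.49 to 5.17) higher. Of 4 stem and early progenitor genes measured, 3 were higher (SPINK2, CD34 and AVP) and 0 lower, with a median log2 ratio of 1.65. Against SPINK2 cells the list did not go 1 way. Of 5 genes measured apart from SPINK2, 1 was at least 2-fold higher, 2 were lower and 2 were within 2-fold. GATA2 was also at least 2-fold higher than in SPINK2 cells.

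Of 24 transcription factors, CEBPE and GATA2 were higher by at least 2-fold, CEBPE in only 9 of 17 settings of the processing. Another 4 were lower, among them IRF8, KLF4 and ID2. These have known roles in monocyte and dendritic cell fates or in holding back other factors. IRF8 was 18.5 against 45.1 CPM, KLF4 3.70 against 24.2, and ID2 20.6 against 69.7. Apart from CEBPE, the factors named above as regulators of the granule program were within 2-fold, as was MYC. CEBPA was 94.3 against 122 CPM, SPI1 (PU.1) 371 against 397, RUNX1 103 against 138, MYB 103 against 71.8 and MYC 176 against 110. Their levels in the azurophil granule cells were thus near those of later neutrophil cells, with MYB and MYC above.

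The 10 genes of largest ratio in each direction, among those at 20 CPM or more that went the same way in all hashtags, were for the higher side CLC, PRG3, IGLL1, KCNH2, AVP, GATA2, CD34, DBN1, CD3D and SLC27A2. CLC (galectin-10, the Charcot-Leyden crystal protein) and PRG3 (a relative of major basic protein) are eosinophil and basophil genes, and their ratios rest on few cells, as described further on. Across 17 settings of the processing, the log2 ratio went as low as -1.16 for CLC, which reversed, and 0.095 for PRG3. DBN1 and SLC27A2 were at 2-fold in 16 of the 17. KCNH2, a potassium channel, was 90.7 against 14.1 CPM, and AVP, a neuropeptide gene that is also read in hematopoietic stem cells, 48.5 against 8.51 CPM. CD3D, a CD3 chain of the T-cell receptor complex, was 28.3 CPM in azurophil granule cells, 9.12 CPM in later neutrophil cells and 162 CPM in SPINK2 cells. Of the other lymphoid genes measured against later neutrophil cells, IL7R was lower (4.69 against 20.54 CPM) and LTB within 2-fold. The lower side held FCN1, HP, MNDA, VCAN, C19orf59 (now MCEMP1), C1QA, RETN, CES1, CHI3L1 and LYZ. FCN1 (ficolin) was 0.427 against 30.6 CPM, MNDA 11.1 against 137, VCAN (versican) 7.25 against 90 and RETN (resistin) 63.0 against 557.

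**Figure D3:**
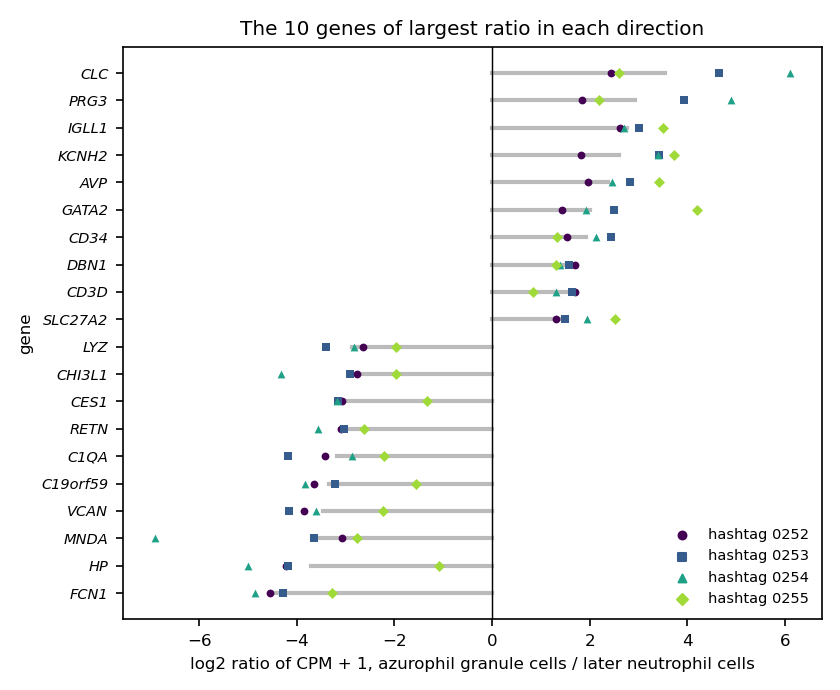
log2 ratio of CPM + 1 between azurophil granule cells and later neutrophil cells (horizontal axis) for the 10 genes of largest ratio in each direction (vertical axis), with a bar for all cells and a point for each of the 4 hashtags. All points of a gene lie on the same side of 0, and those of CLC and PRG3 spread the most on the higher side, from 2.44 to 6.11 and from 1.84 to 4.90.

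Macrophage transcripts moved with this comparison. All 8 measured macrophage and monocyte genes were lower in azurophil granule cells, with a median log2 ratio of -2.15, and the summed level of the 14 listed genes was 92.1 CPM (79.6, 77.4, 89.8 and 176 by hashtag) against 418 CPM in later neutrophil cells and 6382 CPM in C1Q macrophages. CSF1R, the receptor for macrophage colony-stimulating factor, was the most abundant of them in azurophil granule cells at 44.1 CPM, and 4 of the 14 were at 0, CD14 among them, which allows up to 0.427 CPM. No azurophil granule cell held 20 or more C1Q UMIs, and 10 later neutrophil cells did, which carried 54.7% of the C1Q UMIs of that group. Without those 10 cells the macrophage list was at 292 CPM, LYZ at 1800, HP at 148 and FCN1 at 28.8 in later neutrophil cells, and 56 genes were higher and 278 lower. Of HLA class II genes 5 of 6 were lower, with 141 against 357 CPM summed. Erythroid genes summed to 81.3 against 257 CPM, with the copies HBG1 and HBG2 not told apart, and 94.8% of the embryonic globin HBZ in later neutrophil cells came from 1 cell. By hashtag they were 131, 43.0, 62.1 and 59.5 CPM in azurophil granule cells and 118, 155, 1167 and 32.7 CPM in later neutrophil cells, so hashtag 0254 carried the difference and the direction turned in 0252 and 0255.

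Genes of the secretory pathway and of the cell cycle stayed within 2-fold between these groups. None of 22 genes for folding and entry into the endoplasmic reticulum (ER) passed 2-fold in either direction, with a median log2 ratio of 0.02 and summed levels of 12404 and 10647 CPM. CALR (calreticulin) differed by 1.68-fold (1.65 to 1.72), at 3306 against 1965 CPM. The same was true for 8 heme synthesis genes, 39 S-phase genes and 52 G2/M genes. Of 16 genes whose mutations cause congenital neutropenia, CXCR4 alone was lower and 0 were higher. Of 19 lysosomal genes 4 cathepsins were lower (CTSB, CTSL, CTSS and CTSH). Among 8 cytokine receptors 3 were lower (CSF1R, CSF2RA and IL6R), while CSF3R, the receptor for granulocyte colony-stimulating factor, was 95.8 against 134 CPM.

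Against SPINK2 cells, the azurophil granule cells differed by granule genes and by the ER machinery. Of 8121 genes, 275 (3.39%) were at least 2-fold higher and 239 (2.94%) lower, with a median log2 ratio of 0.01. Of 10 azurophil granule genes outside the rule 9 were higher, with a median log2 ratio of 3.89. MPO was 257, 467, 246 and 222 CPM by hashtag in SPINK2 cells, so every hashtag of the azurophil granule cells was far above them, and the ratio was 23.3-fold (22.5 to 24.1). SRGN was 22.1-fold (20.8 to 23.6) higher and CTSG 3.23-fold (2.81 to 3.72).

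Most ER genes were higher than in SPINK2 cells. Of 22 measured, 15 were at least 2-fold higher and 0 lower, against a background of 3.39%, with a median log2 ratio of 1.34. CALR (a chaperone of myeloperoxidase among other glycoproteins) was 3435, 3332, 3261 and 2879 CPM by hashtag in azurophil granule cells and 3306 CPM in all. It was 610 CPM in SPINK2 cells, 5.42-fold (5.29 to 5.56) lower, and 1965 CPM in later neutrophil cells. HSPA5 (BiP) was 1101 against 237 CPM and HSP90B1 (GRP94) 1554 against 417 CPM. The summed level of the ER list was 12404 CPM in azurophil granule cells, 10647 in later neutrophil cells, 11305 in eosinophil granule cells, 4582 in C1Q macrophages and 4476 in SPINK2 cells, so the 3 granule groups were near each other and above the latter pair.

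Several transcription factors of the granule program were higher than in SPINK2 cells, and others were within 2-fold. CEBPE was 123 against 4.46 CPM, 27.6-fold (21.3 to 36.3) higher, CEBPA 94.3 against 22.2 CPM and 4.26-fold (3.71 to 4.89) higher, and GFI1 2.61-fold (2.10 to 3.24). SPI1 was 371 against 278 CPM and RUNX1 103 against 67.0 CPM, both within 2-fold. Of 25 factors 7 were higher (CEBPA, CEBPD, CEBPE, GFI1, MYB, ZEB2 and GATA2) and 3 lower (GFI1B, ID2 and HOXA9). HOXA9, a homeobox gene of stem cells, was 3.70 against 23.7 CPM. CSF3R was 95.8 against 18.1 CPM, 5.29-fold (4.57 to 6.13) higher, and 3 of 9 cytokine receptors were higher with 0 lower.

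Lymphoid genes went the other way. All 6 measured were lower than in SPINK2 cells (CD7, LTB, CD79A, CD79B, CD3D and CD3E), with a median log2 ratio of -2.07 and summed levels of 73.2 and 483 CPM. By hashtag the sums were 54.1, 56.7, 149 and 103 CPM in azurophil granule cells and 291, 354, 572 and 665 CPM in SPINK2 cells, lower in the former in every hashtag. SPINK2 cells numbered 181, 92, 182 and 177 by hashtag, so the pooled ratios also reflect a different mix of hashtags. Of 5 Notch target genes 4 were lower (HES1, HES4, NOTCH1 and CD3D), with list sums of 53.0, 54.3, 111 and 70.9 against 153, 138, 314 and 423 CPM by hashtag. The 10 genes of largest ratio on the higher side were CST7, CSTA, PRG3, SLPI, DEFA4, SERPINB10, RNASE3, MPO, CEBPE and SRGN (PRG3 at 5.03, and at 2.47 with cells rich in CLC and PRG3, described further on, left out of both groups), and on the lower side IGJ (now JCHAIN), CYP1B1, PLVAP, HOPX, ACY3, CSRP2, CD3G, CCR7, LTB and ID3. CST7 (cystatin F, an inhibitor of the cathepsin that activates granule proteases) led with a log2 ratio of 5.26, and IGJ, the joining chain of secreted antibodies, was at -4.41. CD3G was at -3.64 for the pooled cells and at -1.90, -1.43, -3.63 and -4.63 by hashtag.

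The distance to the C1Q macrophages was larger across all genes, with 1119 of 8586 genes (13.0%) at least 2-fold higher and 1028 (12%) lower, and a median log2 ratio of 0.19 that counts should be read against. The macrophages were also taken with fewer than 20 protease UMIs, so genes that vary with the proteases could differ by choice. MPO was 74.6, 59.9, 59.8 and 75.2 CPM by hashtag in macrophages, 96.0-fold (86.6 to 107) lower than in azurophil granule cells. After MPO the largest ratios on the higher side were those of CEBPE, CTSG, CLC, LPPR3, MS4A3, DEFA4, CST7, RGL4 and PRG3. CLC and PRG3, at 3.48 and 5.31 CPM in macrophages, were 5.95 and 22.1 CPM in the azurophil granule cells other than the 28 rich in them. The log2 ratio of PRG3 went from 4.72 to 1.87 without these, no macrophage being as rich. That of CLC, 0.63 without these, otherwise ran from 1.55 in hashtag 0255 to 6.83 in 0254. On the lower side they were those of CD14, SPP1, HLA-DPA1, HLA-DRB1, HLA-DRA, AGR2, HLA-DQB1, HLA-DQA1, MS4A7 and HMOX1. CD14, a receptor for lipopolysaccharide, was at 0 in every azurophil granule cell. All 7 HLA class II genes were lower, with a median log2 ratio of -6.83, and 9 of 20 lysosomal genes were lower with 0 higher. S-phase genes were higher in 22 of 39, with a median log2 ratio of 1.06.

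The azurophil granule cells varied over a wide range of the proteases, and other genes varied with them. They were ordered by ELANE+PRTN3+AZU1 per 10000 UMIs and cut at 30.9 and 98 into terciles of 114, 113 and 113 cells. The low tercile held 34, 44, 22 and 14 cells of the 4 hashtags, the middle 46, 37, 14 and 16, and the high 54, 40, 7 and 12. The median depth was 22418.5, 21466 and 18560 UMIs, lowest in the high tercile. Since the terciles were cut by the proteases, other genes were compared as a description, with 197 of 8144 genes (2.42%) at least 2-fold higher in the high than in the low tercile and 147 (1.81%) lower.

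Granule genes outside the rule went with the proteases. MPO was 3099, 5954 and 11171 CPM in the low, middle and high tercile, a ratio of 3.60-fold (3.51 to 3.70) between the ends. SRGN was 983, 1639 and 2968 CPM, CTSG 42.1, 81.1 and 116 CPM, and CST7 26.5, 45.9 and 155 CPM. Of 11 azurophil granule genes 8 were higher and 0 lower, with a median log2 ratio of 1.44. The calprotectin genes, which the rule limits, went up as well. In the low and high tercile S100A8 was 6.24 and 31.1 CPM and S100A9 101 and 238 CPM. S100P and CSF3R were also at least 2-fold higher. DEFA4 was far higher in the high tercile, at 1.56, 3.28 and 141 CPM. ELANE, part of the sum that cut the terciles, was 4.29, 22.9 and 260 CPM. The high tercile held 34 of the 38 members with at least 3 ELANE UMIs and 24 of the 51 with 1 or 2.

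Of 11 promyelocyte genes 5 were higher, among them MS4A3 (2.29-fold, 2.03 to 2.59) and SERPINB10 (4.41-fold, 2.93 to 6.80). ER genes moved less than granule genes. CALR was 2268, 3459 and 4435 CPM, HSP90B1 1059, 1539 and 2197 CPM, and 2 of 22 ER genes (HSP90B1 and P4HB) passed 2-fold, with a median log2 ratio of 0.68. SERPINB1, an inhibitor of elastase, cathepsin G and proteinase 3, was 158, 253 and 443 CPM. Over the 340 cells, Spearman's rho with the protease sum per 10000 UMIs was 0.835 for MPO, 0.709 for SRGN, 0.612 for HSP90B1, 0.502 for CALR and -0.326 for the total UMIs of the cell. For MPO it was 0.861, 0.787, 0.692 and 0.842 within the hashtags. For CD34 it was -0.379 over all cells and -0.438, -0.395, -0.040 and -0.428 within the hashtags, and for GATA2 -0.160 over all cells and -0.135, -0.206, -0.195 and 0.153, so neither held in every hashtag. These share a library and the total in their denominators and are a description.

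Pooled over hashtags, progenitor genes went the opposite way. CD34 was 77.6, 42.6 and 21.7 CPM, GATA2 108, 59.4 and 30.1 CPM, AVP 62.4, 56.9 and 20.7 CPM, SOX4 152, 75.8 and 48.8 CPM, and CSF2RB, the shared receptor chain for IL-3, IL-5 and GM-CSF, 53.0, 32.8 and 16.3 CPM. Of 5 stem and early progenitor genes 3 were lower (SPINK2, CD34 and AVP), and of 22 factors 5 were lower (IRF8, GATA2, GATA1, LMO4 and ID2) and 2 higher (GFI1 and ERG). CLC was 337, 104 and 54.3 CPM. Without the members rich in CLC and PRG3, described next, the low and high terciles gave 70.9 and 21.9 CPM for CD34, 85.7 and 30.0 for GATA2, 3327 and 11193 for MPO, and 6.53 and 4.58 for CLC. The course of CLC thus rested on those cells, and PRG3 without them was higher in the high tercile, at 37.7 against 16.5 CPM. MPO, CD34 and GATA2 kept their direction without them.

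**Figure D4:**
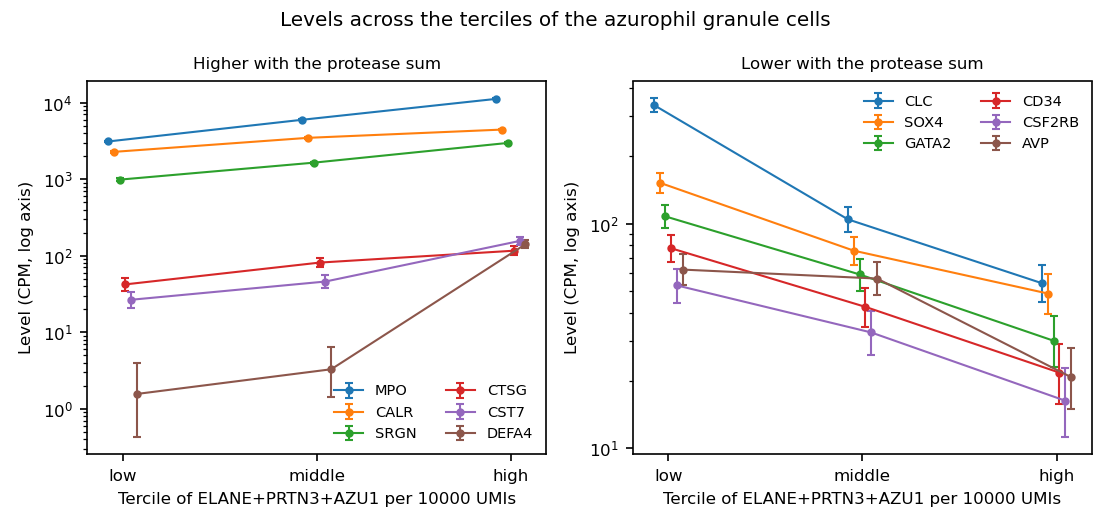
Level of granule and ER genes (left) and of progenitor and eosinophil genes (right) in CPM on a log axis, across the low, middle and high tercile of ELANE+PRTN3+AZU1 per 10000 UMIs, with bars for exact Poisson 95% intervals. MPO goes from 3099 to 11171 CPM and CD34 from 77.6 to 21.7 CPM.

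A small set of the azurophil granule cells carried eosinophil transcripts. At least 10 UMIs of CLC and PRG3 together were present in 28 of the 340 (9, 12, 5 and 2 by hashtag), a limit chosen after the values were seen. The sum was 0 in 207 members, 1 or 2 in 85, 3 to 9 in 20, 10 to 49 in 13 and 50 or more in 15. CLC was 150, 195, 344 and 18.3 CPM by hashtag and 175 CPM in all azurophil granule cells, against 14.1 CPM in later neutrophil cells and 5717 CPM in eosinophil granule cells. The rule let such cells in, because it left out only cells with at least 10 UMIs of both EPX and PRG2. EPX reached 10 UMIs in 36 members and PRG2 in 2, and 22 of the 28 had EPX at that level.

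These 28 cells also differed in genes that did not choose them. With a floor of 50 CPM, 63 of 3127 genes (2.01%) were at least 2-fold higher than in the other 312 and 30 (0.959%) lower, with no test. GATA1, the factor of the erythroid, megakaryocyte and eosinophil lines, was 103 against 8.40 CPM, with 19 of the 28 cells holding a UMI. IL5RA, the receptor for the eosinophil cytokine IL-5, was 41.4 against 0.458 CPM, seen in 10 of the 28 cells and in 3 of the others. GATA2 was 244 against 55.6 CPM, CEBPE 379 against 104, LMO4 652 against 125, CSF2RB 147 against 27.2 and HDC, which makes histamine, 95.2 against 11.3.

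Neutrophil granule genes split in them. Of 9 azurophil granule genes outside the rule 1 was higher (CD63, a membrane protein of several granule types, 887 against 435 CPM), 2 were lower (CTSG and LYZ) and 6 were within 2-fold, with a median log2 ratio of 0.21. Of 9 promyelocyte genes CST7, SERPINB10 and CEBPE were higher and 0 lower. MPO was 3422 against 6638 CPM, 1.94-fold lower (1.85 to 2.04), CTSG 29.0 against 80.5, LYZ 108 against 256 and CEBPA 33.1 against 98.8. Even so, MPO reached a median of 37.5 UMIs per cell (1 to 236) and the protease sum a median of 47, and 5 of the 28 were in the high tercile against 15 in the low. AVP and KCNH2, which were among the 10 genes of largest ratio against later neutrophil cells, were 143 against 41.5 CPM and 548 against 56.9 CPM. Cells with at least 10 UMIs of CLC and PRG3 were left out of both groups to see what else rested on them, which were the 28 and 1 later neutrophil cell. The ratios of CLC and PRG3, which chose these cells, had to move, and went from 3.54 to 0.075 and from 2.94 to 0.84 on the log2 scale. Among genes that did not choose them, CEBPE went from 1.02 to 0.79, below 2-fold. GATA2 was then at 1.73, CD34 at 1.83, IGLL1 at 2.77, KCNH2 at 2.15 and AVP at 2.16, and 51 genes were at least 2-fold higher and 298 lower.

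**Figure D5:**
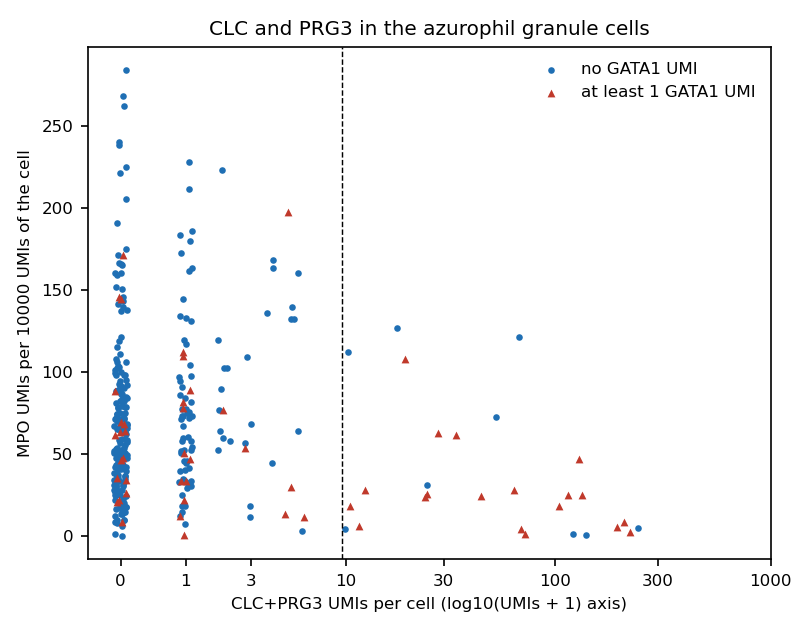
CLC+PRG3 UMIs per cell (horizontal, log10(UMIs + 1) axis) against MPO UMIs per 10000 UMIs of the cell (vertical) for the 340 azurophil granule cells, with triangles for cells with at least 1 GATA1 UMI. The 28 cells at 10 or more hold 19 of the triangles and lie mostly in the lower range of MPO.

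Cell cycle transcripts of the azurophil granule cells were somewhat below those of SPINK2 cells and above those of C1Q macrophages. The summed level of the S-phase list was 3382, 3510, 3432 and 3339 CPM by hashtag and 3430 CPM in all, against 3089 in later neutrophil cells, 3405 in eosinophil granule cells, 3676 in SPINK2 cells and 1721 in C1Q macrophages. The G2/M list was 6195, 6273, 6472 and 5753 CPM by hashtag and 6204 CPM in all, against 6540, 6982, 7238 and 5039 CPM. Neither list had a gene at 2-fold against later neutrophil cells or SPINK2 cells. Between the low and the high tercile 0 of 39 S-phase genes passed 2-fold and CDC25C alone of 52 G2/M genes was lower in the high tercile.

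The hashtags did not hold equal shares of azurophil granule cells. They were 134 of 2136 kept cells in 0252 (6.27%, 5.28 to 7.39), 121 of 1996 in 0253 (6.06%, 5.06 to 7.20), 43 of 1847 in 0254 (2.33%, 1.69 to 3.12) and 42 of 1571 in 0255 (2.67%, 1.93 to 3.60). The intervals of the first pair did not overlap those of the second, but with 1 pool per hashtag this is no test of a condition. Later neutrophil cells numbered 205, 214, 52 and 22 and eosinophil granule cells 46, 43, 12 and 2 in the same order. In hashtag 0255 the azurophil granule cells outnumbered the later neutrophil cells, and in the other hashtags they did not. Hashtag 0254 held the lowest level of MPO, AZU1, ELANE and DEFA4 among the azurophil granule cells and the highest level of CLC, GATA2 and CD34.

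Apart from the eosinophil genes, few azurophil granule cells held many transcripts of the other cell types counted. At least 20 UMIs of the globin genes HBG1, HBG2 and HBD were present in 3 of them and at least 5 UMIs of SPINK2 in 8. A doublet caller marked 2 of the 340 and 8 of the 493 later neutrophil cells, out of 63 kept cells that it marked in all.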

How the data were processed

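The authors aligned the reads of the 10x 3′ gene expression library with Cell Ranger 6.0.1 to hg19 and deposited UMI counts of 32738 genes in 10836 barcodes, without normalization, together with a call per barcode, either a hashtag, doublet or negative. Per the methods, the calls rest on the hashtag antibody counts of the same pipeline, and no threshold for them is given in the sources used here. All 10836 barcodes were in both files. Calls for 1 hashtag numbered 8488, doublets 1339 and negatives 1009, and 7550 cells with 142110950 gene UMIs passed the limits on UMIs, genes and mitochondrial share. The 340 azurophil granule cells held 7033832 UMIs.

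Counts were summed per group and hashtag and scaled to CPM. A gene was called when CPM + 1 differed at least 2-fold and either group reached 10 CPM. The rule's 7 genes were left out. Genes named were the label's markers, listed genes, and the 10 of largest ratio in each direction at 20 CPM or more that went the same way in every hashtag. A few others (in the terciles and the members with CLC and PRG3) were named after their values were seen. Members and lists were chosen with earlier results of these data known. Intervals are exact Poisson or Clopper-Pearson. Doublets were the deposited calls, and Scrublet was run as a check and removed no cell. Scripts were tested on simulated data and used scanpy 1.11.5, pandas 2.3.3, matplotlib 3.10.9, scipy 1.17.1 and numpy 2.4.6 under Python 3.11.15. A few listed genes are not reported here.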

Additional observations from a re-analysis of the deposited data

Results flagged for a closer look

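Barcodes that the hashtag calls left out also met the rule. Of 809 barcodes called negative that were within the limits on UMIs, genes and mitochondrial share, 30 (3.71%, exact binomial 95% interval 2.52 to 5.25) met it, at a median of 16285.5 UMIs, 6044 CPM of MPO and 7035 CPM of PRTN3, close to the 6417 and 6951 CPM of the azurophil granule cells. Among barcodes called doublets it was 63 of 834 (7.55%, 5.85 to 9.56), with 4786 CPM of MPO. These barcodes were used in no comparison because they carry no single hashtag.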

How the results depend on the processing

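No paired test was run, although every hashtag pool holds every group, because the groups of cells were chosen by their expression. Differences within each hashtag pool are given as values. The share of 4.50% was 5.54% and 3.59% with the protease limit at 10 and 40 UMIs, 2.97% and 6.23% with the calprotectin limit at 5 and 20, and 9.10% (67 cells) with at most 10% mitochondrial UMIs. In these settings in turn MPO (6417 CPM) was 5546, 7491, 5334, 7323 and 9592 CPM, with 5906 without limits on the cells, 6638 without the members with CLC and PRG3 (also with such cells left out of every group), and 7116 as a mean over cells. S phase (3430 CPM) was 3385 at 40 UMIs, 3569 and 3382 at the calprotectin limits, 3630 at 10% mitochondrial UMIs, 3375 without limits and 3368 as a mean over cells, and G2/M (6204 CPM) was 6093, 6060, 6066, 6366, 6288 and 5902, and 6283 after another scaling. At 10% mitochondrial UMIs the genes higher than in later neutrophil cells were 103 instead of 58, and those higher and lower than in SPINK2 cells 577 and 445 instead of 275 and 239. With a floor of 50 CPM the counts were 16 higher and 88 lower than in later neutrophil cells and 109 and 59 against SPINK2 cells, and with no floor 129, 570, 446 and 608. Leaving out each hashtag in turn gave 3.80 to 5.21% for the share, 5566 to 6709 CPM for MPO, 3384 to 3459 for S phase, 6164 to 6268 for G2/M, 54 to 65 and 304 to 323 genes against later neutrophil cells, and 246 to 321 and 239 to 249 against SPINK2 cells. The log2 ratio of CLC against later neutrophil cells reversed, from 3.54 to -1.16 at 10% mitochondrial UMIs. Leaving the 28 members that hold CLC and PRG3 out of the azurophil granule cells alone gave -1.12, a fall that this choice fixed, and leaving such cells out of both groups gave 0.075. Of 48 named ratios, 47 kept their sign in every setting and CLC did not. Of the 44 at 2-fold or more, 39 kept both direction and 2-fold in every setting. Besides CLC, the lowest log2 ratio was 0.78 for CEBPE, 0.095 for PRG3, 0.71 for DBN1 and 0.996 for SLC27A2. Leaving out those 28 members (or such cells of both groups), or the 10 later neutrophil cells with C1Q, was chosen after seeing the data. Hashtags are single pools, so no value here has a replicate error.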
